A study of Mus musculus with 2 samples.

Results

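The thin filament of the heart muscle sarcomere is described here through 10 genes fixed by function: the troponin genes Tnnc1, Tnni3, Tnni1 and Tnnt2, the actin genes Actc1 and Acta1, the tropomyosin gene Tpm1, the tropomodulin gene Tmod1 and the leiomodin genes Lmod2 and Lmod3. They are 10 of 25004 genes in the tables, and transcripts were named by gene symbol and their counts summed per gene. Of the 10, 6 had more than 3 reads in a library and were given a ratio between the libraries, as were 4236 of all genes. Messenger RNA was selected with poly-T beads from whole hearts of FvB/N mice aged 12 weeks, with 1 library from non-transgenic mice, the control genotype, and 1 from mice with the cMyBP-C delta C0-C1f transgene. The transgene encodes cardiac myosin binding protein-C, made from the gene Mybpc3, without its amino-terminal C0-C1f region. Each library pooled 3 hearts, so animals cannot be told apart. The sources used here do not give the promoter of the transgene, the number of lines or the state of the endogenous gene. The comparison asks how messenger RNA levels in the hearts differed between the genotypes. Each genotype thus has a single library, so nothing below was checked against replicates, and every interval or floor holds counting error alone.

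In each thin filament unit, actin forms the strand, tropomyosin lies along it, and the troponin complex couples calcium to contraction. Calcium binds troponin C, troponin I holds the filament inhibited, and troponin T ties the complex to tropomyosin. Tropomodulin caps the pointed end of the filament, and leiomodins nucleate actin and lengthen filaments from that end. Cardiac myosin binding protein-C sits on the thick filament, and its amino-terminal domains reach towards actin and myosin heads. The heart switches troponin I from the slow skeletal form, Tnni1, to the cardiac form, Tnni3, around birth, and Acta1, skeletal actin, is known as a gene of the fetal heart that returns under load.

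The promoters of the most counted troponin and actin members are shown first because these genes were counted higher together in the transgenic library. Each sequence is the part of the 250 bases upstream of a RefSeq transcript start that lies outside the exons that GENCODE release M21 gives to the same gene (RefSeq, GRCm38.p6), printed 5′ to 3′ on the gene's strand. Capitals mark matches to the motifs searched.

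Tnnc1, chr14:31208062-31208311, plus strand: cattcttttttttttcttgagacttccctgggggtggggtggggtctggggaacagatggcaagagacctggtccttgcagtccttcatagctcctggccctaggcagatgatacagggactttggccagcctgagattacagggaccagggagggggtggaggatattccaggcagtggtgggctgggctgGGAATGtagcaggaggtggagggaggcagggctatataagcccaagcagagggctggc
Tnni3, chr7:4522529-4522694, minus strand: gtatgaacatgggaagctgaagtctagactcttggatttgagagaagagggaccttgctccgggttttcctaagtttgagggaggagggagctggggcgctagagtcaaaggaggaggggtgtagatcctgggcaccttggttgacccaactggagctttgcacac
Actc1, chr2:114052888-114053125, minus strand: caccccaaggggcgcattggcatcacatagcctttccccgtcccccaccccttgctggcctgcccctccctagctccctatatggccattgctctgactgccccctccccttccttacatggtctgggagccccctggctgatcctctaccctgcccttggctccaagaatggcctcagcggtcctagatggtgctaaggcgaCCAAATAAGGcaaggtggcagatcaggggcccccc

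The motifs were searched on both strands in the 250 upstream bases, and none of those named for a gene overlapped another. The CArG box, the binding motif of serum response factor, was found in Actc1 and in Acta1, and 1.5% of 32851 promoter windows of the same length held it. The M-CAT motif CATTCC, bound by TEAD factors, was found in 5 members, among them Tnnc1, where it lies on the opposite strand as GGAATG, and 12.6% of all windows held it. TATAAA was found in Acta1 only (12.4% of all windows). The GATA motif, GATA with A or T before it and A or G after it, was found in Tnnt2 and Lmod2 (26.5% of all windows), and the MEF2 motif in none of the members (1.7%). The table held a window for 9 members, all but Lmod3, and the window of Tmod1 lay wholly inside exons of Tmod1. The M-CAT match of Tpm1 also lay inside exons of Tpm1, which take up 193 of its 250 upstream bases. Tnni3 held none of the motifs, so the 3 genes shown share no motif of those searched.

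Counted reads totalled 170543 for the non-transgenic and 190824 for the transgenic hearts. A count of 1 stood for 6.22 and 4.94 CPM, the unit of counts scaled to a common library total with TMM factors, and the floor set for a gene at 0, 3 counts per library, stood for 18.6 and 14.8 CPM. Of 10 ventricular cardiomyocyte markers, 6 had a ratio, among them Myl2, Ryr2, Ckm and Fabp3, whereas Myl3 was at 0 and Myh6, Mb and Pln at 2 counts or fewer. Those 4 genes have more than 1 transcript accession in the tables. The atrial markers Myl7, Sln, Myl4 and Bmp10, of which all but Myl4 have 1 accession, and all 5 erythroid genes listed were at 0 in both libraries. The labels name a strand-marking kit but not the strand setting of the counting. The most counted genes of both libraries were Map3k15, with 11983 and 12037 reads, and A930016O22Rik, with 7272 and 6993. Each overlaps an abundant heart gene on the other strand, Pdha1 and Ckm. Such overlapping genes, those with an exon that shares bases with one of a gene on the other strand, were 23.4% of genes and held 71.7% and 67.2% of the reads. Whether reads were counted on the wrong strand, which would change what every count here stands for, was not tested.

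The labels do not give the sex of the mice. Xist, expressed from the inactive X chromosome of females, had 0 and 20 reads, and Tsix, which overlaps it on the opposite strand, 0 and 137. The Y-linked gene Ddx3y had 1 and 0. Apart from such genes, the ribosomal protein pseudogene Rps18-ps4 had 1 and 688 reads. The part of the sex of the pooled animals in the ratios below was not tested, and it cannot be told apart from genotype with 1 library per group.

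The 10 members took a larger share of the counted reads in the transgenic library. They held 2556 reads in the non-transgenic library, 1.499% of its counts (95% exact Clopper-Pearson interval 1.44 to 1.56), and 4177 in the transgenic library, 2.19% (2.12 to 2.26). The 4 troponin genes held 0.668% (0.630 to 0.708) of the non-transgenic and 1.09% (1.05 to 1.14) of the transgenic counts. The 3 genes of filament length, Tmod1, Lmod2 and Lmod3, held 0.299% (0.274 to 0.326) and 0.296% (0.272 to 0.321). The larger share thus lay with the troponins and with actin, which held 0.531% (0.497 to 0.567) and 0.7997% (0.760 to 0.841). Such shares amount to scaling by total counts alone, which gives higher ratios than TMM factors. With TMM factors the summed ratio of the 10 members was 1.30 (1.24 to 1.37). Overlapping genes, of which Tmod1 is the only one among the members, held 71.7% of the non-transgenic and 67.2% of the transgenic reads. The part of that difference in the shares was not tested.

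**Figure D1:**
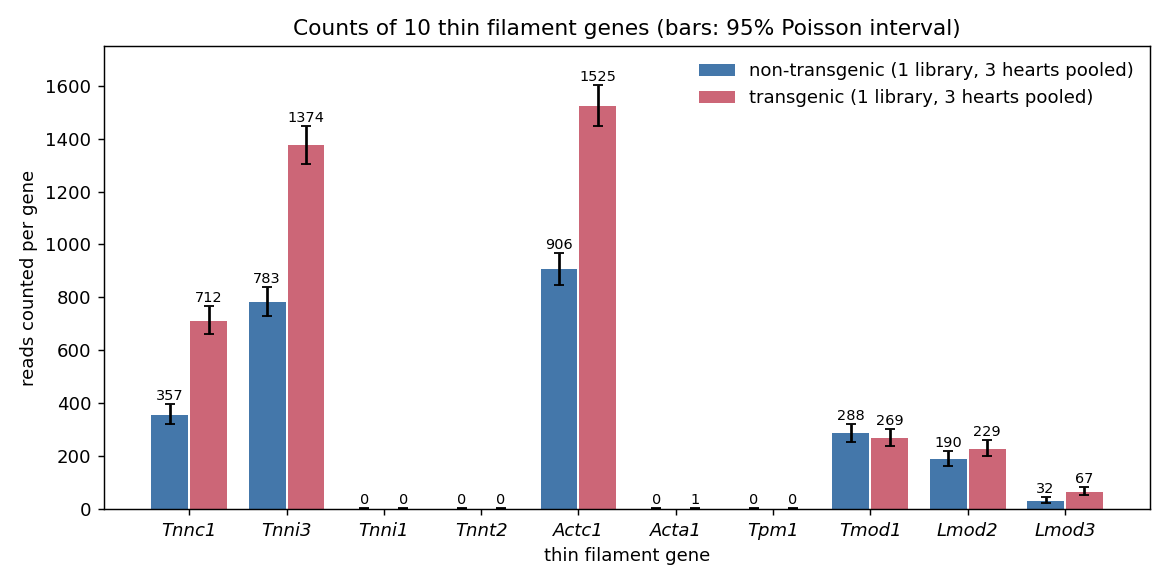
Reads counted per gene (vertical axis) for the 10 thin filament genes (horizontal axis) in the non-transgenic and the transgenic library, each 1 pool of 3 hearts; error bars are 95% Poisson intervals, or reach the floor of 3 for a count of 0. Actc1 and Tnni3 are the most counted, and Tnni1, Tnnt2, Acta1 and Tpm1 stand at 0 or 1 in both libraries.

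The members with and without reads were split by the number of RefSeq transcripts they have in the tables. All 6 members with a ratio have 1 accession, and the 4 others have more. Tnnt2, troponin T of the heart, has 9 accessions and Tpm1, the main cardiac tropomyosin gene, has 10, and each had 0 reads in both libraries on every accession. Tnni1 has 2 accessions and 0 reads in both libraries. Acta1 has 2 accessions, with 0 reads in the non-transgenic library and 1 in the transgenic one. Across all genes the same split was weaker: 41.1% of 17075 genes with 1 accession had a read in either library, against 14.9% of 7929 genes with more, and 10.9% of 138 genes with at least 9. Several accessions did not always go with low counts, since 54 of those 7929 genes (0.68%) had at least 90 reads in both libraries summed. Of the 17075 genes with 1 accession, 501 (2.93%) had that many, and of the 138 with at least 9 accessions, 0 had. Counting per transcript may leave out reads that several transcripts of a gene share, which was not tested here. Troponin T and tropomyosin are indispensable parts of a working heart filament, so the 0 of Tnnt2 and Tpm1 is not read as absence, and no difference between the genotypes is read from any of the 4 genes.

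Reads shared with other genes were examined because actins and troponins belong to families of similar sequence. All stretches of 50 bases in the counted transcripts, as GENCODE gives them, were looked up on both strands in the transcripts of every other gene. None of 1424 such stretches of Actc1 occurred in another gene, nor did any of 672 in Tnnc1, 863 in Tnni3, 1927 in Lmod2 or 2166 in Lmod3. The read length is not given in the sources used here. The longest stretch that the transcripts of Actc1 and Acta1 have in common is 29 bases long and lies in the coding part of both. It is shown because it marks how far Actc1 and Acta1 can be mistaken for each other.

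Actc1, bases 1119 to 1147 of the transcript, and Acta1, bases 1036 to 1064: ctggctcccagcaccatgaagatcaagat

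Among the 6 members with a ratio Tmod1 was the exception, since 39.8% of its 3109 stretches occurred in Tstd2. Of the 1397 stretches of Acta1, which has no ratio, 31 occurred in Gm47692 and 28 in Actb. Tmod1 and Tstd2 lie on chromosome 4 on opposite strands. Of the 1657 bases of the 3′ untranslated part of Tmod1 (46114376 to 46116032, GRCm38), 1287 overlap exons of Tstd2. Tstd2 has 3 accessions and had 0 reads in both libraries. Reads given to Tmod1 in that stretch could thus belong to either gene.

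Tnnc1 (chromosome 14, 31208312 to 31211729, plus strand, GENCODE M21 on GRCm38, the build also called mm10), which encodes the calcium-binding subunit of cardiac and slow muscle troponin, had 357 reads in the non-transgenic library and 712 in the transgenic one. After TMM scaling these are 2219 and 3519 CPM, a ratio of 1.59 with a 95% counting interval of 1.39 to 1.81. The interval lies wholly above 1. Nisch, whose span on the opposite strand holds Tnnc1 without an overlap of exons, had 5 and 12 reads, a ratio of 1.91 (0.626 to 6.91).

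Tnni3 (chromosome 7, 4518305 to 4524229, minus strand), the inhibitory subunit of cardiac troponin and a target of protein kinase A, had 783 and 1374 reads, which are 4868 and 6791 CPM. Its ratio was 1.40 (1.28 to 1.53). Gm15873, within 5 kb on the opposite strand, was not analysed here. With Tnnc1, Tnni3 makes up all reads of the troponin members, and the summed ratio of the troponin genes was 1.45 (1.35 to 1.57).

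Actc1 (chromosome 2, 114047282 to 114053548, minus strand), the actin of heart muscle, had the highest count of the members, 906 and 1525 reads, or 5632 and 7538 CPM. The ratio was 1.34 (1.23 to 1.45). On the opposite strand, without an overlap of exons, lie A530058N18Rik, with 0 reads in both libraries, and C130080G10Rik, with 71 and 82 reads and a ratio of 0.918 (0.660 to 1.28). The 3 most counted thin filament genes were thus all higher in the transgenic library by more than their counting error.

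The genes that set filament length went different ways. Tmod1 (chromosome 4, 46038935 to 46116032, plus strand), the pointed-end cap, had 288 and 269 reads, or 1790 and 1330 CPM, and a ratio of 0.743 (0.627 to 0.880), wholly below 1. Lmod2 (chromosome 6, 24597762 to 24605414, plus strand), the leiomodin of the heart, had 190 and 229 reads, 1181 and 1132 CPM, and a ratio of 0.958 (0.787 to 1.17). Its interval holds 1, and a difference up to the interval's ends in either direction was not detectable at this depth. Lmod3 (chromosome 6, 97238534 to 97252759, minus strand), better known from skeletal muscle thin filaments, had 32 and 67 reads, 199 and 331 CPM, and a ratio of 1.66 (1.08 to 2.62). Neither leiomodin gene has an exon on the opposite strand within 5 kb. Together the 3 genes had 510 and 565 reads, a summed ratio of 0.881 (0.780 to 0.995).

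A gene was counted as apart if its ratio was at least 1.5 in either direction and its counting interval did not reach 1. Of the 6 members with a ratio, Tnnc1 and Lmod3 were apart on the higher side, where 3.42% of the 4236 genes with a ratio were, and none was apart on the lower side, where 5.9% were. At any size, the interval lay wholly above 1 for 4 members, Tnnc1, Tnni3, Actc1 and Lmod3 (3.94% of the 4236 genes), and wholly below 1 for Tmod1 (8.43%). A gene with few reads can hardly be apart, so the same was counted over the 555 genes with at least 90 reads in both libraries summed, a limit chosen after the counts were seen so that all 6 members are above it. Among those, 5.77% were apart on the higher and 14.4% on the lower side, and 9.73% and 33.7% had an interval wholly above or below 1. The median log2 ratio was 0.45 over the 6 members, 0.05 over all genes with a ratio and -0.19 over the 555. In order of ratio among those 555, Tnnc1 was at place 23, Tnni3 at 40, Actc1 at 55, Lmod2 at 218 and Tmod1 at 408. Lmod3, with 32 and 67 reads, passes the limit only through its transgenic count, so its place is not given and its being apart adds no support.

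The size of these ratios depends on how the libraries are scaled to each other. Scaling by DESeq2 size factors or by total counts alone moved the log2 ratio of every gene up by 0.11 and 0.17. TMM factors taken only from genes without an overlapping exon on the opposite strand, chosen after the data were seen, moved it down by 0.12. Under the last scaling no member was apart: Tnnc1 had a ratio of 1.46 (1.28 to 1.66) and Lmod3 of 1.53 (0.992 to 2.42). Under total counts alone Tnni3, at 1.57, and Actc1, at 1.504, were apart as well. Under all 8 alternatives tried Tnnc1, Tnni3 and Actc1 had intervals wholly above 1, and the ratio of Lmod2 ran from 0.883 to 1.08 and lay above 1 under DESeq2 size factors and under total counts alone.

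**Figure D2:**
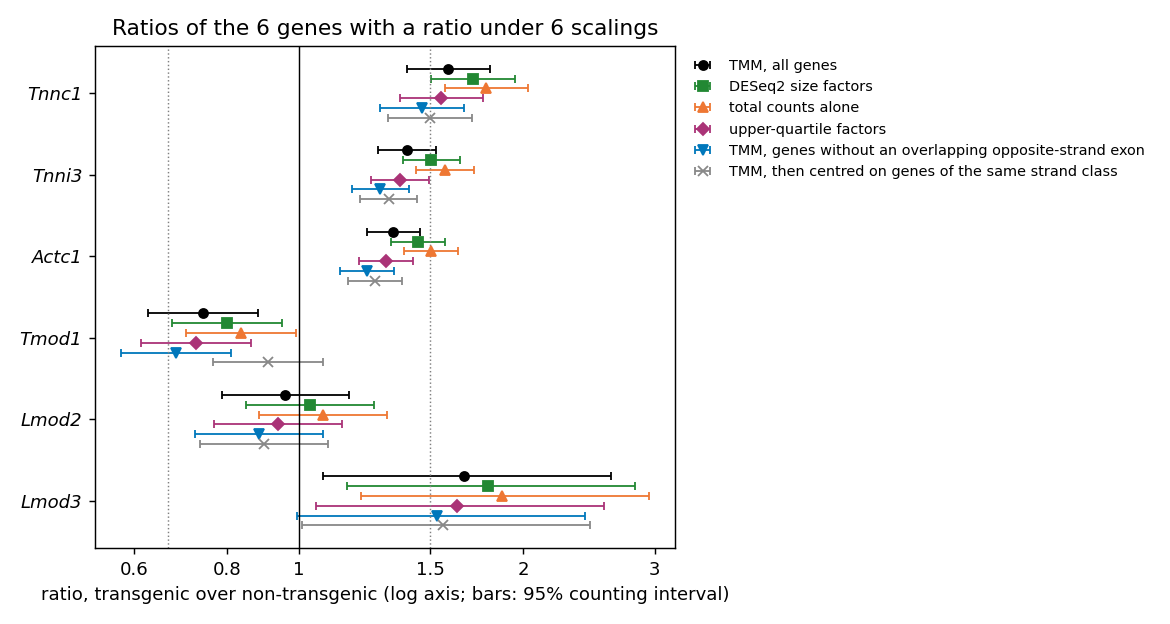
Ratio of scaled counts, transgenic over non-transgenic (horizontal log axis), for the 6 thin filament genes with a ratio; points are 6 scalings, bars 95% counting intervals, the solid line marks 1 and the dotted lines 1.5-fold. Tnnc1, Tnni3 and Actc1 stay above 1 under each scaling shown, Tmod1 stays below it, with an interval that holds 1 in the scaling centred on strand class, and Lmod2 lies on both sides.

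The strand classes of genes had different median ratios, and the members fall in all 3 classes. Among genes with at least 90 reads, the median log2 ratio was -0.29 for 387 genes with an exon overlapping one on the opposite strand, 0.08 for 92 genes with such an exon within 5 kb, and 0.09 for 56 genes with none; the other 20 genes had no class. Tmod1 is an overlapping gene, Tnnc1, Tnni3 and Actc1 have such an exon within 5 kb, and Lmod2 and Lmod3 have none. Within its own class Tnnc1 was at place 7 of 92 by ratio, Tnni3 at 15, Actc1 at 20, Lmod2 at 42 of 56 and Tmod1 at 268 of 387. When each ratio was divided by the median ratio of its class, also an alternative chosen after the data were seen, Tmod1 came to 0.910 (0.768 to 1.08), Tnnc1 to 1.499 (1.32 to 1.71), just under the limit of 1.5, and Lmod3, at 1.56 (1.01 to 2.46), was the only member apart. The median ratio of the overlapping genes was 0.816, above that of Tmod1. What part the strand of the reads has in the value of Tmod1 was not tested.

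**Figure D3:**
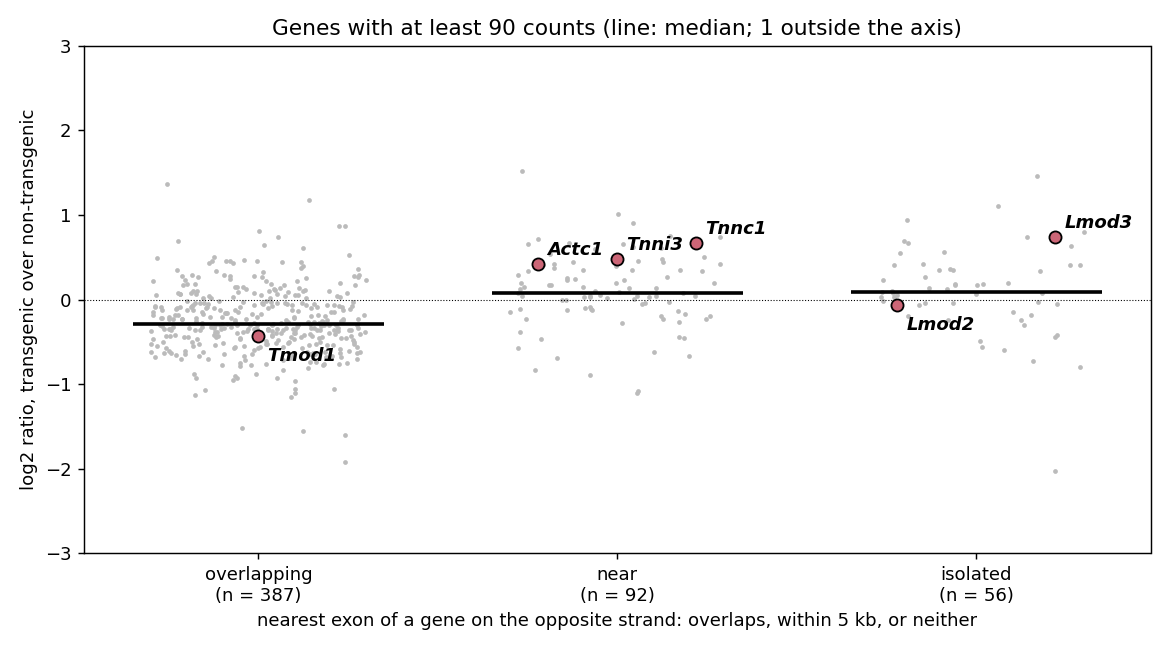
Log2 ratio, transgenic over non-transgenic (vertical axis), of genes with at least 90 reads in both libraries summed, by whether an exon on the opposite strand overlaps, lies within 5 kb, or neither (horizontal axis); grey points are genes, lines class medians, and 1 gene lies outside the axis. Tnnc1, Tnni3, Actc1 and Lmod3 (red) lie above the median of their class, and Tmod1 and Lmod2 below it.

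Counts of thin filament genes were also compared with each other inside a library, which no scaling between libraries can change. Of 15 pairs among the 6 members, 9 had a ratio that differed between the libraries beyond its exact 95% counting interval. The same held for 34.0% of all pairs of the 555 genes with at least 90 reads. That is not a like comparison, since the interval narrows with the number of reads and the 15 pairs share 6 genes. Among the 9 are the pairs of Tmod1 and of Lmod2 with Lmod3. Lmod3 passes that limit only through its transgenic count, so these pairs add no support. For each read of Tmod1 there were 1.24 reads of Tnnc1 in the non-transgenic library and 2.65 in the transgenic one, a change of 2.14-fold (1.72 to 2.65). Tnni3 and Actc1 against Tmod1 changed 1.88-fold (1.55 to 2.28) and 1.80-fold (1.49 to 2.18). Against Lmod2, the change was 1.65-fold for Tnnc1 (1.30 to 2.10), 1.46-fold for Tnni3 (1.17 to 1.81) and 1.40-fold for Actc1 (1.13 to 1.73). The difference between troponin or actin and the genes of filament length Tmod1 and Lmod2 was therefore present without any scaling. A pair ratio does not remove a difference between strand classes, and Tmod1 is in the overlapping class, which had the lowest class median. Centred on strand class, Tmod1 came to 0.910 and Lmod2 to 0.898, against 1.499 for Tnnc1, 1.32 for Tnni3 and 1.27 for Actc1. The part of strand class in the pairs was not tested.

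Inside the group of highly counted genes the balance changed less than against Tmod1 or Lmod2, and only Tnnc1 against Actc1 had an interval that excludes 1. Tnni3 stood at 0.864 reads per read of Actc1 in the non-transgenic library and 0.901 in the transgenic one, a change of 1.04-fold (0.923 to 1.18). Tnnc1 against Tnni3 changed 1.14-fold (0.971 to 1.33), and Tnnc1 against Actc1 1.18-fold (1.02 to 1.38). Tmod1 against Lmod2 changed by a factor of 0.775 (0.596 to 1.01). For Lmod3 the pairs with the other leiomodin and with troponin differed: Lmod2 against Lmod3 changed by a factor of 0.576 (0.350 to 0.934), and Tnnc1 against Lmod3 by 0.953 (0.593 to 1.504), an interval that is wide because of the 32 and 67 reads of Lmod3.

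**Figure D4:**
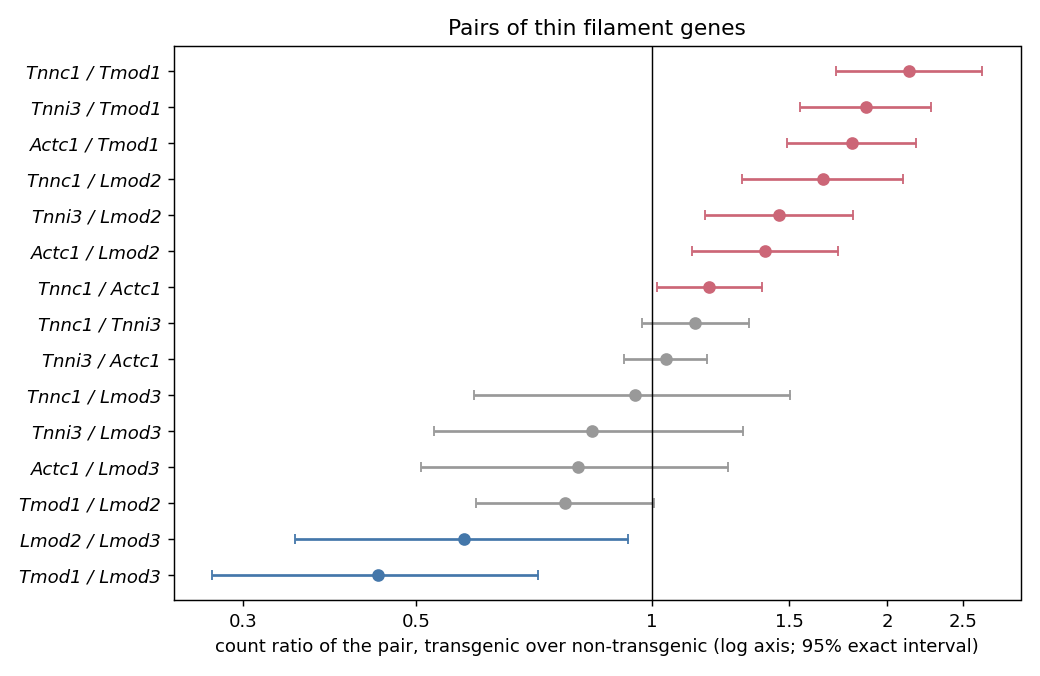
Change in the count ratio of 15 pairs of thin filament genes, transgenic over non-transgenic (horizontal log axis), with exact 95% intervals; red pairs lie wholly above 1, blue wholly below, grey hold 1. The pairs of Tnnc1, Tnni3 or Actc1 over Tmod1 or Lmod2 are all red.

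Mybpc3, the gene whose product the transgene alters, had 344 and 398 reads, a ratio of 0.920 (0.794 to 1.07). A count per gene does not separate transgene from endogenous transcripts, so it checks nothing about the labels. Against Mybpc3, Tnnc1 changed 1.72-fold (1.42 to 2.10), Tnni3 1.52-fold (1.28 to 1.80), Actc1 1.45-fold (1.23 to 1.72) and Lmod3 1.81-fold (1.14 to 2.92). Lmod2 at 1.04 (0.813 to 1.33) and Tmod1 at 0.807 (0.644 to 1.01) had intervals that hold 1.

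Levels of different genes were compared as CPM per kilobase of transcript. In the non-transgenic library the order was Tnni3 with 5337 CPM per kilobase, Actc1 with 3824, Tnnc1 with 3078, Lmod2 with 598, Tmod1 with 567 and Lmod3 with 89.8. The transgenic library had the same order, with 7447, 5117, 4881, 573, 421 and 150. The neighbours Lmod2 and Tmod1 did not differ beyond counting error in the non-transgenic library (a level ratio of 1.05, 0.873 to 1.27) and did in the transgenic library (1.36, 1.14 to 1.63). For Actc1 over Tnnc1 it was the reverse, with 1.24 (1.10 to 1.41) for the non-transgenic and 1.05 (0.959 to 1.15) for the transgenic library. Of these changes between the libraries, that of Tmod1 against Lmod2, given above, has an interval that holds 1, and that of Tnnc1 against Actc1 does not.

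Other genes of the same families were barely counted. Of 15 further troponin, actin, tropomyosin, tropomodulin and leiomodin genes, 4 had a ratio and none was apart. All 4 lay above 1: the cytoplasmic actin gene Actb had 23 and 36 reads and a ratio of 1.24 (0.718 to 2.20), and the tropomyosin gene Tpm4 had 8 and 14 reads and a ratio of 1.39 (0.545 to 3.83). The skeletal troponin genes Tnnc2 and Tnni2, with 1 accession each, and Tnnt1 and Tnnt3, with more, were at 0 in both libraries.

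Of 23 genes of actin assembly and turnover, 12 had a ratio. Of the 12, 2 were apart on the higher side and none on the lower side, against 3.42% and 5.9% of all genes with a ratio. The median log2 ratio of the 12 was 0.21, and 8 of them lay above 0. Tmsb4x, which binds actin monomers, had 47 and 103 reads and a ratio of 1.74 (1.22 to 2.52). Neb, the gene of nebulin, a giant protein along the thin filament, overlaps a gene on the opposite strand. Neb had 1 and 10 reads and a ratio of 7.95 (1.13 to 345). It was given a ratio only because of its transgenic reads, so its being apart adds no support. Of 13 transcription regulators of sarcomere genes, 5 had a ratio and none was apart. Hand2 had 23 and 21 reads (ratio 0.726, 0.382 to 1.37) and Gata6 had 11 and 7 (0.506, 0.166 to 1.43), while Mef2a, Mef2c, Gata4, Myocd and Tead1, all with more than 1 accession, were at 0. Of 10 genes of kinases and kinase subunits linked to troponin I phosphorylation, 4 had a ratio and none was apart. Prkca had 8 and 9 reads (0.894, 0.306 to 2.66) and Prkar2a had 7 and 8 (0.909, 0.288 to 2.94).

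Markers of other cell types are given for the same libraries, since in bulk tissue fewer cells of a type and less RNA per cell cannot be told apart. The summed ratio of the 10 ventricular cardiomyocyte markers was 1.20 (1.15 to 1.26), with 3398 and 5139 reads, of which Myl2 gave 2405 and 3916. Of the 6 with a ratio, only Myl2, at 1.29 (1.23 to 1.36), had an interval that excludes 1. Ryr2 at 1.14, Fabp3 at 1.14 and Cox6a2 at 1.06 lay above 1, and Ckm at 0.921 and Mybpc3 at 0.920 below. The 7 fibroblast markers summed to 51 and 39 reads, a ratio of 0.608 (0.390 to 0.941), of which Col3a1 gave 23 and 14. Dcn, Tcf21 and Pdgfra had at most 1 read in each library. Sums of marker lists were scaled with TMM factors only. The 6 endothelial markers summed to 69 and 70, a ratio of 0.807 (0.570 to 1.14), with Pecam1, Egfl7 and Emcn, all with more than 1 accession, at 0. The 7 smooth muscle and pericyte markers summed to 99 and 195 reads, a ratio of 1.57 (1.22 to 2.02), of which the pericyte gene Rgs5 gave 65 and 157. The pericyte genes Pdgfrb and Kcnj8, both with more than 1 accession, were at 0 in both libraries. Without Rgs5 the list had 34 and 38 reads, a ratio of 0.889 (0.545 to 1.46). Its smooth muscle gene Tagln had 28 and 26, a ratio of 0.738, and Myh11 and Cnn1 were at 0. Of 9 skeletal muscle markers 7 were at 0 in both libraries and the list had 1 read in each library. Of 5 atrial markers, Nppa alone had reads, 9 and 31, a ratio of 2.74 (1.27 to 6.54). Nppa overlaps a gene on the opposite strand, and Myl7, Sln, Myl4 and Bmp10 were at 0. The 8 macrophage and lymphocyte markers summed to 14 and 20 reads, with Ptprc, Adgre1, Cd3e and Cd79a at 0, and the 4 adipocyte markers to 154 and 189, a ratio of 0.976 (0.785 to 1.21). Fabp4, which capillary endothelium of the heart also expresses, gave 154 and 188 of them, and Plin1 and Cidec were at 0. The part of the cell makeup in the ratios of the thin filament genes was not tested.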

How the data were processed

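The authors deposited raw counts of reads per RefSeq transcript for each library, made with STAR and HTSeq on mm10 per the submitters' processing notes. Per the labels' protocols, the library kit keeps strand. For versions, annotation and strand setting: not given in the sources used here. Of 41449 accessions, 41252 took their gene name from RefSeq's table and 99 from GENCODE M21, and 98 without a name, with 1.81% and 1.66% of the counts, stayed as rows of their own. Counts were summed per gene and scaled with TMM factors of 0.943 and 1.06 (edgeR 4.0.16, R 4.3.3). With 1 library per group no test was run, and each ratio has an exact 95% Clopper-Pearson interval for counting error. Pairs of genes have exact conditional intervals from scipy 1.17.1. Calculations were tested on simulated data. DESeq2 1.42.0 size factors, upper-quartile factors, total counts, other gene filters, 1 accession per gene and 2 strand-based scalings were alternatives.

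The rule for genes named was all members, their opposite-strand neighbours, up to 4 genes apart in each further list or its 2 most counted genes with a ratio, and marker genes by list. Members and lists were chosen with earlier results of these data known, and so were the strand classes and the limit of 90 reads.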

Additional observations from a re-analysis of the deposited data

How the results depend on the processing

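Ratios of members lay inside their own counting intervals under each alternative, with 3 exceptions. Scaling by total counts alone gave 1.57 for Tnni3 and 1.504 for Actc1, and centring on strand class gave 0.910 for Tmod1; no member that was apart changed direction. The number of members apart on the higher side was 2 as reported. It was 4 with total counts alone, 3 with DESeq2 size factors, 1 when centred on strand class, 0 with TMM over genes without an overlapping exon, 0 at a limit of 2-fold and 4 at the smallest fold limit tried. On the lower side it was 1, Tmod1, at that smallest limit and 0 otherwise. Over all genes with a ratio, higher calls were 36.7% of calls with TMM, 54.1% with DESeq2 size factors, 62.2% with total counts and 23.9% with TMM over genes without an overlapping exon. The median over the 6 members ran from 0.33 to 0.62. Pair ratios and levels per length were the same under their alternative, since the 6 members have 1 accession each. No paired analysis was possible because each group has 1 library. The low totals of counted reads limit Lmod3 most of the 6, and Tnni1, Tnnt2, Acta1 and Tpm1 had too few reads for a ratio.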
